A study of Mus musculus with 4 samples.

Results

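The T lineage genes described here are 10 mouse genes for receptor chains, coreceptors, kinases, transcription factors and a growth factor of T cells: Cd4, Cd8a, Cd3d, Cd3e, Cd3g, Lck, Zap70, Tcf7, Gata3 and Il2. They are 10 of the 34819 gene names in the array design and were chosen by symbol, and all probes that are not controls and carry one of these symbols were taken, which gave 329 of 520554 probes, between 19 for Cd3g and 53 for Gata3. All 10 symbols were found, and all 329 probe sequences matched the plus strand of the mm9 genome at the coordinates in the files. DNA of cultured mouse cells was enriched for methylated fragments with an antibody (MeDIP), labelled with Cy3 and hybridised together with the Cy5-labelled input DNA of the same cells to an Agilent array of promoters and CpG islands. There were 4 arrays, 1 for each group: KO cells treated with decitabine, KO cells without treatment, WT cells treated with decitabine and WT cells without treatment. Decitabine is a cytidine analogue that is built into DNA and traps DNA methyltransferases. It was given at 20 nM every 24 h for 3 days, and treated and untreated cells were harvested at 72 h.

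The labels disagree on the deleted gene. The source names of the KO arrays read Mll5KOHM and those of the WT arrays Mll5WTHM, where the letters HM are not explained, while the genotype field of the KO arrays reads HOXA9 KO and the cell line field of all arrays reads MII5. KO and WT are therefore used as the titles give them. MeDIP measures no gene product and cannot check the deletion. All groups were grown in the same medium with human IL-6, mouse IL-3 and mouse SCF, and nothing states whether an array stands for 1 culture, 1 clone or a pool. The words T lineage name the genes and not the cells, since DNA methylation does not show whether a gene is expressed and the labels call none of the cells T cells.

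The T cell receptor sits in the membrane with the CD3 chains, whose tails carry its signal into the cell. The coreceptors CD4 and CD8 hold the kinase LCK, which phosphorylates those tails so that the kinase ZAP-70 can dock and pass the signal on, while the transcription factors TCF-1 (from Tcf7) and GATA3 set up the T cell programme and IL-2 is the growth factor made after activation. In most other blood cells these genes are silent, and methylation of CpG sites around a start site is one of the marks often found at silent genes.

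The value of a probe is the log2 ratio of its MeDIP over its input signal, centred on each array so that 0 is the median of the probes used. A probe was used where every spot on every array had input signal well above background and no flag for uneven pixels in either channel, which kept 225 of the 329 T lineage probes (68.4%) and 328399 of all probes (63.1%). Gene levels are means over the kept probes of a gene. MeDIP signal was weak: on the KO decitabine, KO untreated, WT decitabine and WT untreated arrays 10.7%, 2.69%, 9.34% and 2.73% of all spots had MeDIP signal that the scanner software called well above background, a state called bright here. Where the MeDIP signal was too near background, the software had put a surrogate value in its place. In the same order this held for 35.1%, 61.3%, 32.9% and 64.9% of the kept T lineage probes and 35.8%, 56.8%, 37.0% and 59.1% of all kept probes. The level of each T lineage gene includes such values on every array, so they enter every difference between treated and untreated cells. With 1 array a group there is no replicate error, and differences between 2 arrays have no test. SDs are over the probes of a gene and describe the spread of single probes, not the error of a gene mean. The 4 groups were on 4 different slides, so that slide cannot be told apart from group, and no dyes were swapped, so a dye effect cannot be told apart from enrichment. Among probes printed more than once, 26564 in number, the median SD between spots of a probe was 0.23, 0.18, 0.18 and 0.21 on the log2 scale on those arrays in the same order.

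The following sequences carry the probe-level results. The Gata3 stretch spans neighbouring probes that were well above background in the MeDIP channel of both decitabine arrays, and the Cd8a stretch spans probes with such signal on the WT decitabine array alone. Both upstream probes were the only T lineage probes bright on all 4 arrays, and the Zap70 probe was the only bright kept probe of its gene. All are read 5′ to 3′ from the plus strand of mm9, and capitals mark CpG sites, the sites that carry methyl groups. The Gata3 stretch, chr2:9796515-9796760, has 13 CpG sites in 246 bases and crosses the boundary of a coding exon and an intron of a gene transcribed from the minus strand. The Cd8a stretch, chr6:71324218-71324433, has 8 CpG sites in 216 bases and lies in the first intron of a gene transcribed from the plus strand. The Cd8a upstream probe is chr6:71321199-71321258, the Cd4 upstream probe is chr6:124841991-124842041 and the Zap70 intron probe is chr1:36820552-36820596.
Gata3 stretch: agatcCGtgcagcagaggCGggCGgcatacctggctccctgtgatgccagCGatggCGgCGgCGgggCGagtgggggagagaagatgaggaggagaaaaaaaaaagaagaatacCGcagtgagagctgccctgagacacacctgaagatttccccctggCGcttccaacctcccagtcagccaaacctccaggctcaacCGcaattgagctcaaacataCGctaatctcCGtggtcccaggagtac
Cd8a stretch: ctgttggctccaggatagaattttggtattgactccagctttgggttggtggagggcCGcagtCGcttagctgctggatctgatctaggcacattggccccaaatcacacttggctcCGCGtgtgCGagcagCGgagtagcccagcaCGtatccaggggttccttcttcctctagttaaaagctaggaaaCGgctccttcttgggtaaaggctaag
Cd8a upstream probe: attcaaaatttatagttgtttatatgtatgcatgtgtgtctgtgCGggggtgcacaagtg
Cd4 upstream probe: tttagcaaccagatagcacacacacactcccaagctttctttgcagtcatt
Zap70 intron probe: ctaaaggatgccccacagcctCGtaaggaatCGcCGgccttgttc

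More T lineage probes were bright after decitabine than without it, and the same was true of all probes. Of the 225 kept probes, 24 were bright on the KO decitabine array (10.7%), 5 on the KO untreated array (2.22%), 26 on the WT decitabine array (11.6%) and 2 on the WT untreated array (0.889%). Over all kept probes these shares were 16.1%, 4.09%, 14.2% and 4.08%. The lowest MeDIP signal called bright was itself lower on the treated arrays, at 855 (KO decitabine), 1250 (KO untreated), 1035 (WT decitabine) and 1414 (WT untreated) units. With the highest of these limits applied to every array, 14, 5, 13 and 2 T lineage probes remained, or 6.22%, 2.22%, 5.78% and 0.889%, against 10.1%, 4.08%, 9.32% and 4.08% of all kept probes. That limit was added after the data were seen.

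**Figure D1:**
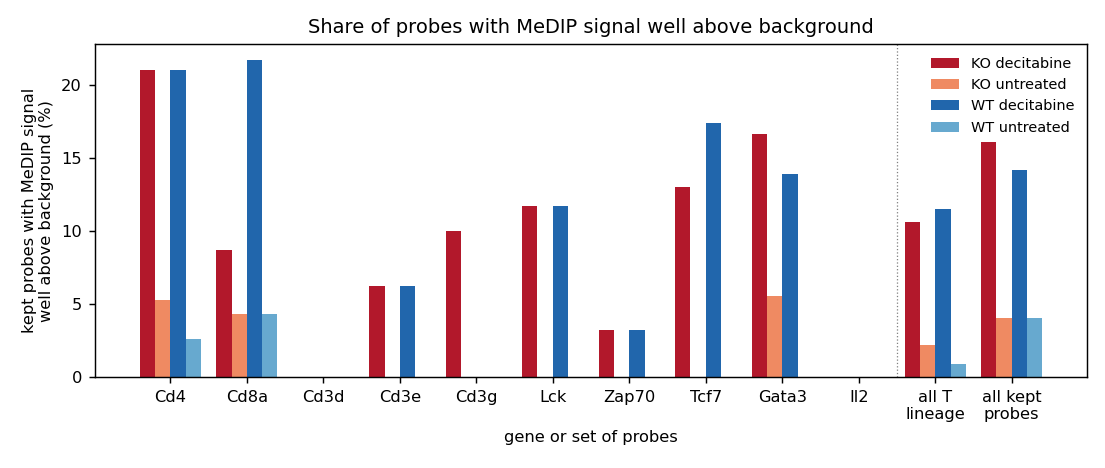
Share of kept probes with MeDIP signal well above background (percent, vertical axis) for each T lineage gene, for all 225 T lineage probes and for all 328399 kept probes, with 1 bar an array. Cd4, Cd8a, Tcf7 and Gata3 hold most of the bright T lineage probes, the bars of the treated arrays are the taller ones in these genes, and Cd3d and Il2 have none.

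Bright probes were few and uneven between genes. In all, 30 of the 225 probes (13.3%) were bright on at least 1 array, against 18.8% of all kept probes, and 15 (6.67%) were bright on both treated arrays and on neither untreated one, against 6.87%. Cd4 had 8, 2, 8 and 1 bright probes of 38 on the KO decitabine, KO untreated, WT decitabine and WT untreated arrays, Cd8a 2, 1, 5 and 1 of 23, and Gata3 6, 2, 5 and 0 of 36. Tcf7 had 3, 0, 4 and 0 of 23 and Lck 2, 0, 2 and 0 of 17. Cd3e and Zap70 had 1 on each treated array, Cd3g had 1 on the KO decitabine array, and Cd3d and Il2 had none. The bright probes had more input DNA signal than the 195 that were never bright, with medians of 1611, 1090, 1553 and 1709 against 486, 379, 423 and 565 units on the 4 arrays in the same order. They did not hold CpG sites more often: 11 of 30 (36.7%) had at least 1, against 91 of 195 (46.7%). Over all kept probes, 21.2%, 4.81%, 17.8% and 3.55% of those with 3 or more CpG sites were bright on the arrays in the same order. Without any CpG site these shares were 14.2%, 3.73%, 12.8% and 4.05%, so only the WT untreated array went the other way. Whether the input signal sets which probes become bright was not tested.

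The levels of the 10 genes lay within the spread of their own probes around the array median on all 4 arrays. The lowest gene level was -0.46, Tcf7 on the WT untreated array, and the highest 0.53, Il2 on the KO untreated array, while the SD over the probes of a gene was between 0.49 and 1.24. No gene level was further from 0 than that spread. Against the levels of all 17034 genes some stood nearer the ends. Il2 was at percentile 96.7 on the KO untreated array, and on the KO decitabine array Il2 was at percentile 7.98 and Zap70 at 7.91. The order of the genes changed from array to array, with Cd3e the highest and Zap70 the lowest on the KO decitabine array and Il2 the highest and Tcf7 the lowest on both untreated arrays. On the WT decitabine array Cd8a was the highest and Cd3d the lowest. On each array, genes next to each other in the order differed by less than the SD over their probes.

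**Figure D2:**
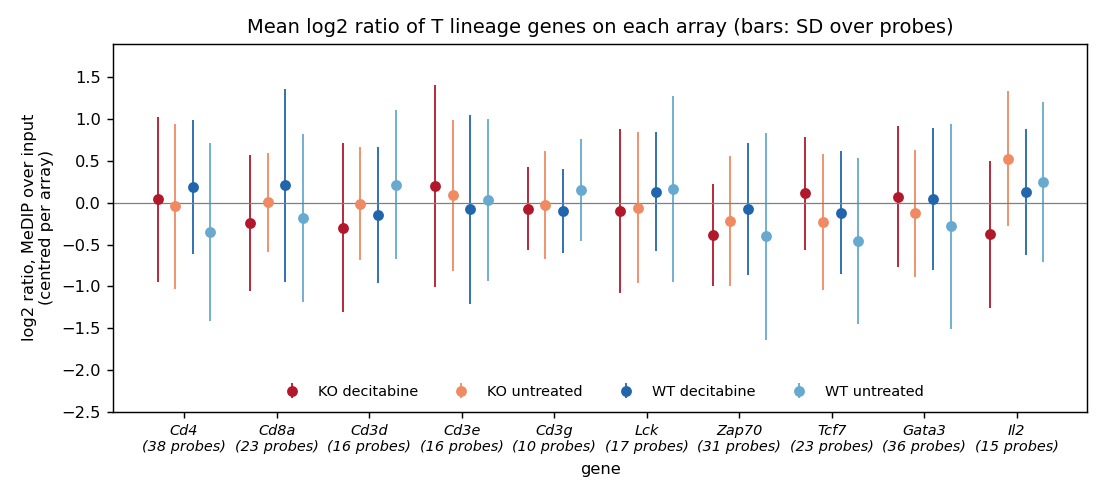
Mean log2 ratio of MeDIP over input (vertical axis) of each T lineage gene on each of the 4 arrays, with bars of 1 SD over the kept probes of the gene. All means lie between -0.46 and 0.53 and the bars of the 4 arrays overlap in every gene.

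Cd4 encodes the coreceptor that binds MHC class II and marks helper T cells, and its mean was higher with decitabine than without it in WT cells. Its level was 0.04 in KO decitabine cells, -0.04 in KO untreated cells, 0.19 in WT decitabine cells and -0.36 in WT untreated cells, over 38 probes with SDs of 0.99, 0.99, 0.80 and 1.07. WT untreated cells were the low ones. In WT cells decitabine minus untreated was 0.55 (SD over probes 0.83), with 25 of 38 probes higher, and in KO cells it was 0.08 (SD 0.82), with 21 of 38 higher. Neither difference exceeded the spread over probes. The Cd4 differences in KO and WT cells were -0.67 and 0.099 with arrays centred on the probes bright on all 4, -0.069 and 0.13 with the median over probes, and -0.29 and -0.13 over the probes bright on at least 1 array.

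The Cd4 upstream probe shown above, in the annotated space before the gene, was bright on all 4 arrays. Its MeDIP signal was 13540, 10506, 17596 and 12635 units over input signals of 11062, 7730, 9645 and 13077 units in KO decitabine, KO untreated, WT decitabine and WT untreated cells. Its log2 ratios were 0.89, 0.66, 1.26 and 0.47, so both treated arrays were above their untreated ones, by 0.23 in KO cells and 0.78 in WT cells. The sequence holds no CpG and a CA repeat of 10 bases, counted in whole CA pairs. Such runs of CA or TG of at least 8 bases, a search chosen after this sequence was seen, occurred in 9.74% of all kept probes that were bright on all 4 arrays and in 0.517% of those that were bright on none.

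The Cd4 probe with the largest mean decitabine difference among the bright ones lies in the first intron at chr6:124837789-124837833. Its log2 ratios were -0.16 in KO decitabine, -1.31 in KO untreated, -0.19 in WT decitabine and -1.69 in WT untreated cells. Both treated arrays were bright and both untreated ones were not. Setting the treated ratio against the higher of the probe's own MeDIP signal and the lowest bright signal on the untreated array gives a bound, which was at least 1.37-fold higher with decitabine in KO cells and at least 1.72-fold higher in WT cells.

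Cd8a encodes the coreceptor chain that binds MHC class I and marks cytotoxic T cells, and its mean after decitabine was lower than without it in KO cells and higher in WT cells. Its level was -0.24 in KO decitabine cells, 0.00 in KO untreated cells, 0.21 in WT decitabine cells and -0.19 in WT untreated cells, over 23 probes with SDs of 0.81, 0.60, 1.16 and 1.01. Decitabine minus untreated was -0.25 in KO cells (SD over probes 0.88), with 17 of 23 probes lower, and 0.40 in WT cells (SD 1.11), with 12 of 23 higher. The 2 responses differed by -0.64, KO minus WT, and with 1 array a group this was not tested. Centred on the probes bright on all 4 arrays, both responses of Cd8a were below 0, at -0.999 in KO and -0.051 in WT cells, and with the median over probes they were -0.18 and 0.099.

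The difference between the treated arrays was concentrated in 1 stretch of Cd8a. That stretch, chosen after its values were seen, comprises the 6 neighbouring kept probes in chr6:71324022-71324873, from the first intron to the third exon. Its mean log2 ratio was -0.14 in KO decitabine, 0.24 in KO untreated, 1.62 in WT decitabine and 0.26 in WT untreated cells, so the WT decitabine array stood alone. All 6 probes were higher in WT decitabine than in WT untreated cells, by a mean of 1.37, while in KO cells decitabine minus untreated was -0.38, with 2 probes higher and 4 lower. KO minus WT under decitabine was -1.76, with all 6 lower, and KO minus WT without treatment was -0.02. Surrogate MeDIP values stood in 1, 3, 0 and 2 of the 6 probes in KO decitabine, KO untreated, WT decitabine and WT untreated cells. The sizes of these differences were therefore not fully measured. Over the other 17 Cd8a probes KO minus WT under decitabine averaged 0.01 and decitabine minus untreated averaged -0.20 in KO and 0.05 in WT cells.

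The 2 probes at the ends of the Cd8a sequence printed above carried the highest ratios of that stretch on the WT decitabine array. At chr6:71324381-71324433 the MeDIP signal was 194, 305, 2272 and 330 units over input signals of 691, 439, 479 and 530 units in KO decitabine, KO untreated, WT decitabine and WT untreated cells. At chr6:71324218-71324265 the MeDIP signals were 463, 940, 2064 and 931 units over 731, 627, 597 and 759 units of input. In both, the MeDIP signal and not the input set the WT decitabine array apart. Of the 6 probes 3 were bright on that array and none on the others. The MeDIP values printed for the other arrays were thus not well above background. Among 33692 sets of 6 neighbouring kept probes of 1 gene within 1000 bp, which overlap one another, 0.368% had all 6 lower in KO than in WT cells under decitabine with a mean of at least 2-fold, and 1.75% had all 6 higher with decitabine in WT cells by as much.

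**Figure D3:**
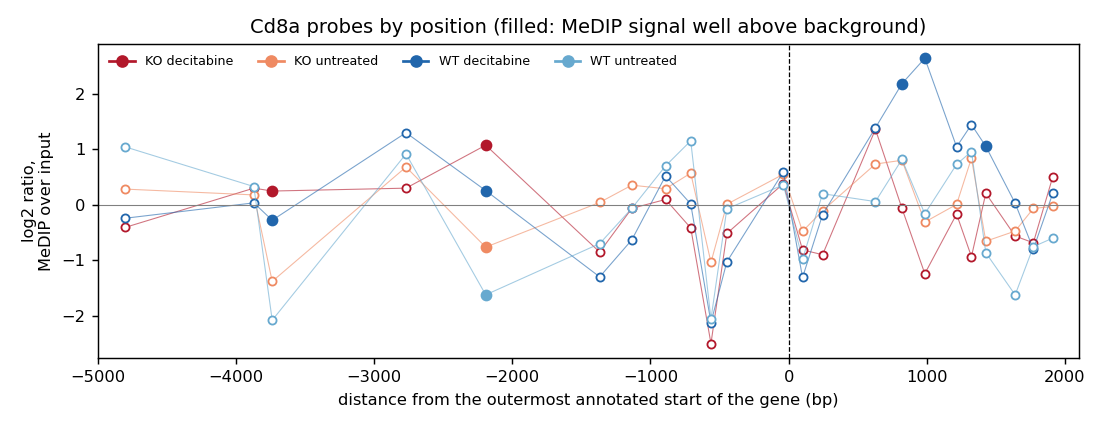
Log2 ratio of MeDIP over input (vertical axis) at each kept Cd8a probe against its distance from the outermost annotated start of the gene in bp (horizontal axis, dashed line at the start), with filled points for bright probes. Over the 6 neighbouring probes between the first intron and the third exon, to the right of the start, the WT decitabine points reach 2.64 while the other 3 arrays stay at or below 1.36, and elsewhere the arrays cross one another.

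The Cd8a upstream probe behaved alike in both genotypes. Its MeDIP signal was 6996, 2944, 6768 and 1705 units over 5030, 5797, 7424 and 7524 units of input in KO decitabine, KO untreated, WT decitabine and WT untreated cells, and it was bright on all 4 arrays. The log2 ratios were 1.07, -0.76, 0.26 and -1.62, with both treated arrays above both untreated ones, and decitabine minus untreated was 1.83 in KO and 1.87 in WT cells. These were the largest decitabine differences of a T lineage probe measured as bright on both arrays of the genotype.

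Cd3d, Cd3e and Cd3g encode the delta, epsilon and gamma chains that flank the T cell receptor, and their probes lie within 1 cluster on chromosome 9 and gave almost no bright MeDIP signal. Cd3d had levels of -0.30, -0.01, -0.14 and 0.22 in KO decitabine, KO untreated, WT decitabine and WT untreated cells (16 probes, SDs 1.01, 0.68, 0.81 and 0.89), with no bright kept probe on any array. Cd3e had levels of 0.20, 0.09, -0.08 and 0.03 (16 probes, SDs 1.21, 0.91, 1.13 and 0.97), and Cd3g of -0.07, -0.03, -0.10 and 0.15 (10 probes, SDs 0.49, 0.65, 0.50 and 0.61). Both treated arrays were lower than their untreated ones for Cd3d and Cd3g, and the 4 values of each gene lay within 1 SD of one another.

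Single CD3 probes gave weak signals. The intron probe of Cd3e at chr9:44815711-44815759 had log2 ratios of 1.17, 0.49, 1.04 and -0.34 in KO decitabine, KO untreated, WT decitabine and WT untreated cells, and it was bright on both treated arrays, but its MeDIP signals of 1266 and 1275 units there were too near the lowest bright signals of the untreated arrays to give a bound above 1. The intron probe of Cd3g at chr9:44786675-44786734 had ratios of 0.25, -1.10, -0.33 and 0.61 in the same order. Only the KO decitabine array was bright there, and the 2 genotypes ran in opposite directions.

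Lck encodes the kinase held by the coreceptors and Zap70 the kinase that docks on the phosphorylated CD3 tails. Lck had levels of -0.10, -0.06, 0.13 and 0.17 in KO decitabine, KO untreated, WT decitabine and WT untreated cells (17 probes, SDs 0.98, 0.90, 0.71 and 1.11), with the KO arrays below the WT arrays by 0.23 under decitabine and by 0.23 without it. The untreated Lck arrays had no bright probe. Under decitabine 12 of 17 probes were lower in KO cells, while the 2 probes bright on both treated arrays were higher in KO cells, by a mean of 0.17. Zap70 had levels of -0.38, -0.22, -0.07 and -0.40 (31 probes, SDs 0.61, 0.78, 0.79 and 1.24), the lowest of the 10 genes on the KO decitabine array.

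The probe of Zap70 printed above, with 3 CpG sites in its first intron, was bright on both treated arrays and on neither untreated one. In KO decitabine, KO untreated, WT decitabine and WT untreated cells its MeDIP signals were 1178, 445, 1170 and 289 units, the last a surrogate value. Its inputs were 1487, 1728, 1831 and 3009 units. With arrays centred on kept probes, its ratio was at least 1.43-fold higher with decitabine in KO cells and at least 1.24-fold higher in WT cells. A rise follows from how the probe was chosen, since it was the only bright kept probe of its gene. The intron probe of Lck at chr4:129234980-129235027 had ratios of 0.61, 0.02, 0.15 and -0.72, bright on the treated arrays. Under the same centring its bounds were at least 1.51-fold higher in KO cells and 1.09-fold higher in WT cells. It was chosen for its decitabine difference among the bright probes.

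Tcf7 encodes TCF-1, which acts at the first step into the T lineage, and Gata3 encodes a zinc finger factor needed at several steps. Tcf7 had levels of 0.12, -0.23, -0.12 and -0.46 in KO decitabine, KO untreated, WT decitabine and WT untreated cells (23 probes, SDs 0.68, 0.81, 0.74 and 0.996). Gata3 had levels of 0.07, -0.13, 0.05 and -0.28 (36 probes, SDs 0.84, 0.76, 0.85 and 1.22). In both genes each treated array lay above its untreated one, by 0.35 in KO and 0.34 in WT cells for Tcf7 and by 0.20 and 0.33 for Gata3, which is less than the SD over probes. Centred on the probes bright on all 4 arrays all of these were below 0, at -0.41 in KO and -0.11 in WT cells for Tcf7 and at -0.55 and -0.12 for Gata3. In KO cells Gata3 was also below 0 over the probes within 1000 bp of a start, at -0.57, and with the median over probes, at -0.085. Part of these probes lie in other annotated genes: 15 Tcf7 probes in A630014C17Rik, 10 Gata3 probes in 4930412O13Rik and 2 in Gm13256.

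The Gata3 stretch printed above held 3 neighbouring probes that were bright on both treated arrays. At its coding exon end, chr2:9796515-9796559, the MeDIP signal was 2263, 1045, 2226 and 327 units over inputs of 3317, 4288, 5259 and 7435 units in KO decitabine, KO untreated, WT decitabine and WT untreated cells. With arrays centred on kept probes, the ratio with decitabine was at least 3.05-fold higher in KO cells and at least 2.03-fold higher in WT cells, the largest bounds among the probes described here. The middle probe at chr2:9796607-9796655 had log2 ratios of -0.18, -0.96, -0.41 and -1.83, and the last one at chr2:9796715-9796760 had 0.27, 0.04, 0.46 and -1.51. In all 3 the WT untreated array was the lowest, and the treated arrays were above the untreated array of the same genotype. At the coding exon end the WT untreated MeDIP value of 327 units was a surrogate, so its distance from the other arrays has no measured size. The stretch was chosen after these values were seen.

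A second Gata3 probe with several CpG sites, an exception to the rule for naming single probes, was named with its values known. It lies in a coding exon at chr2:9799133-9799177 and had 4 CpG sites. Its log2 ratios were 0.36 in KO decitabine, -0.83 in KO untreated, 0.01 in WT decitabine and -2.00 in WT untreated cells, and it was bright on 3 arrays, all except WT untreated. Among the 16 T lineage probes with at least 3 CpG sites, the median log2 ratio was -0.29, -0.60, -0.30 and -0.77 on the 4 arrays in that order, and over the 32920 kept probes of that kind it was -0.02, -0.55, -0.59 and -0.82. The Tcf7 intron probe at chr11:52095076-52095125 differed between the genotypes, with ratios of -0.58, -0.19, 1.05 and -1.46. Only the WT decitabine array was bright there, and the WT untreated value came from a surrogate. With arrays centred on kept probes, the bound was at least 1.27-fold higher with decitabine in WT cells.

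**Figure D4:**
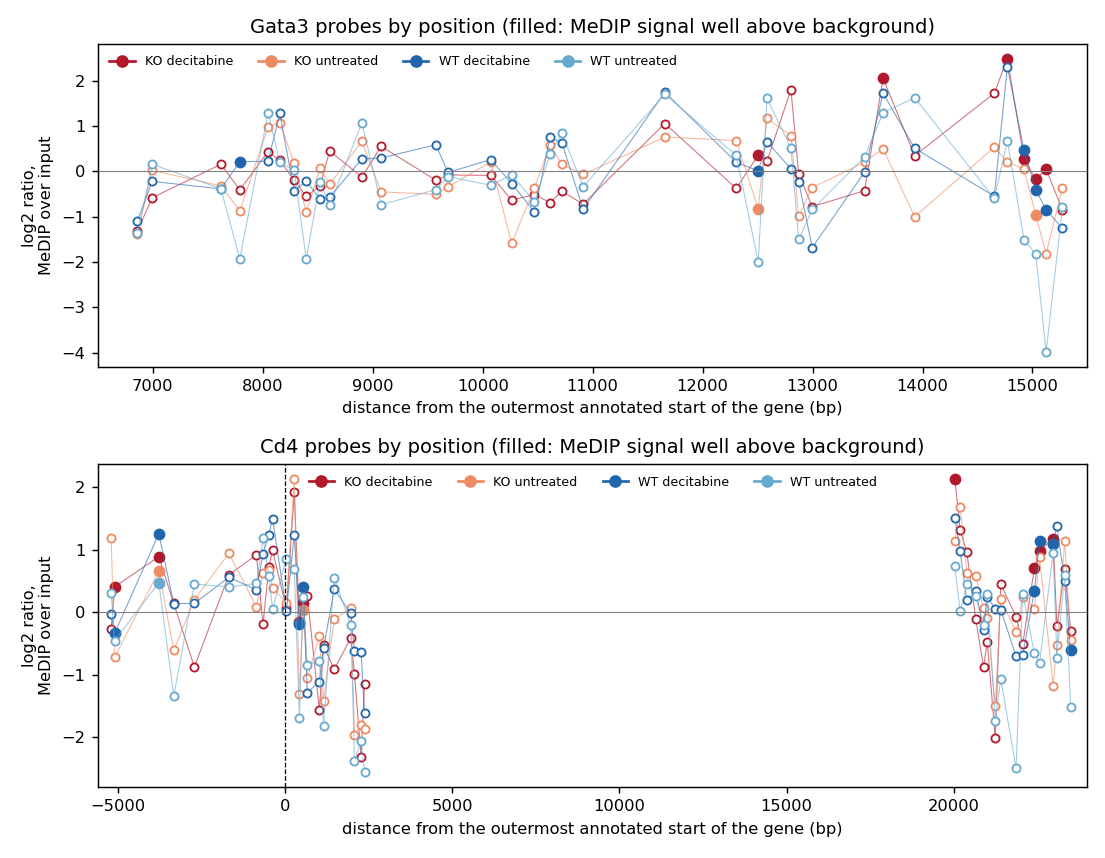
Log2 ratio of MeDIP over input (vertical axes) at each kept probe of Gata3 (top) and Cd4 (bottom) against the distance from the outermost annotated start of the gene in bp (horizontal axes, dashed line at the start of Cd4), with filled points for bright probes and lines broken at the long gap without probes. At the right end of Gata3 the treated arrays carry filled points above the WT untreated array, whose lowest value, -3.98, comes from a surrogate. Cd4 has bright points before the gene, near the start and at the far end.

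Il2 encodes the growth factor that activated T cells secrete, and none of its 15 kept probes was bright on any array. Its level was -0.38 in KO decitabine, 0.53 in KO untreated, 0.12 in WT decitabine and 0.25 in WT untreated cells (SDs 0.88, 0.80, 0.75 and 0.95). KO decitabine cells were the low ones, with 13 of 15 probes below KO untreated cells and a difference of -0.91. In WT cells decitabine minus untreated was -0.12, with 9 of 15 lower. The scanner software had replaced the MeDIP signal by a surrogate value in 10, 7, 8 and 11 of the 15 probes on the 4 arrays in that order, so these values have no measured size and no fold is given. Surrogates were not particular to Il2 and were present in all the other T lineage genes.

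Across the 10 genes, differences between 2 arrays were small, and under the stricter limit of 2-fold with 80% of probes agreeing in direction 0 genes were called in any comparison. Of all genes that limit called 0.376% higher and 0.0411% lower with decitabine in KO cells, 0.476% and 0.0704% in WT cells, 0.235% and 0.0704% in KO minus WT under decitabine and 0.106% and 0.135% in KO minus WT without treatment. In KO cells the median of decitabine minus untreated was -0.04 for the T lineage genes and 0.09 for all 17034 genes. Past 1.5-fold, 0 T lineage genes were higher (4.8% of all genes) and 1 was lower, Il2 (1.54%), which had no bright probe, so the count gives it no measured fold. In WT cells the medians were 0.15 and 0.09, with 0 genes higher (5.67%) and 0 lower (1.63%). KO minus WT had a median of -0.15 against -0.02 for all genes under decitabine, with 0 higher (1.64%) and 0 lower (2.15%), and 0.17 against 0.00 without treatment, with 0 higher (1.42%) and 0 lower (2.35%). The centring moved these medians: with each array centred on the probes bright on all 4 arrays, decitabine minus untreated had a median of -0.79 in KO and -0.30 in WT cells for the T lineage genes and of -0.66 and -0.35 for all genes. The comparisons share arrays pairwise, so their values are not independent of one another. The KO minus WT difference of the decitabine response had a median of -0.07 over the T lineage genes, between -0.79 for Il2 and 0.22 for Cd3e, with 6 of 10 below 0, and of -0.01 over all genes.

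**Figure D5:**
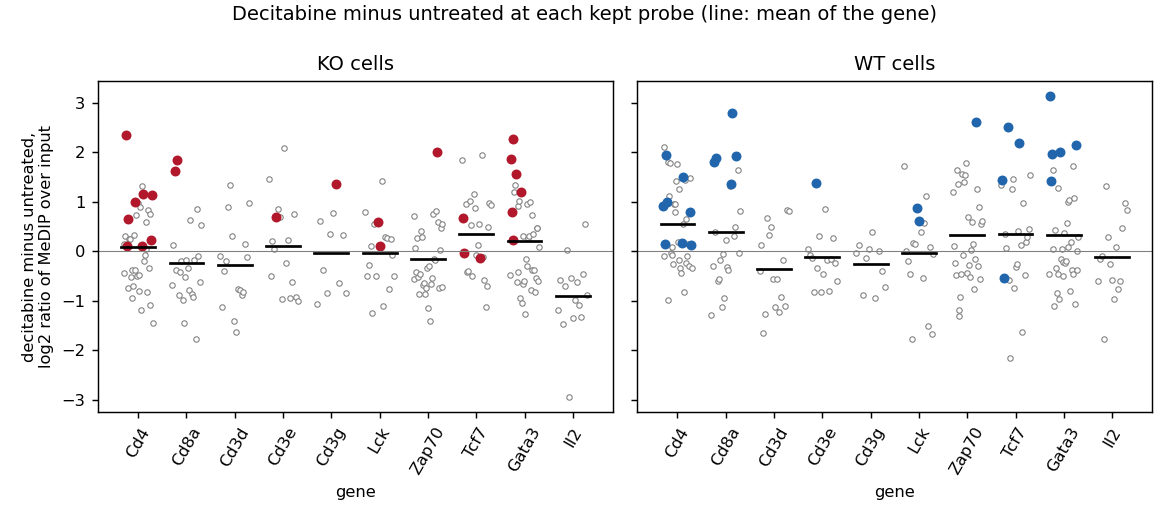
Decitabine minus untreated in the log2 ratio of MeDIP over input (vertical axis) at each kept probe of each gene, in KO cells (left) and WT cells (right), with coloured points for probes bright on at least 1 array of the pair and a line at the mean of the gene. Most coloured points are bright on the treated array, so that their place above 0 follows from how they were chosen. The means stay between -0.91 and 0.55, and the Il2 points of KO cells lie below 0 except for 2 of 15.

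The effect of decitabine over both genotypes was tested with limma in an additive model, with Benjamini-Hochberg adjustment over all 17034 genes. The 1 residual degree of freedom is the interaction, so the error measures departure from additivity and not the spread between cultures. Of the 10 T lineage genes 0 were higher (12.5% of all genes) and 1 was lower (4.47%), again Il2, at -0.52 (SE 0.16, adjusted p = 0.0485), the gene with no bright probe. Il2 lost this call under 7 of the 11 other settings that gave it a value, with adjusted p between 6.96e-06 and 0.582. Tcf7 was at 0.34 (SE 0.12, adjusted p = 0.0648), Cd3d at -0.32 (SE 0.12, adjusted p = 0.0789), Cd4 at 0.31 (SE 0.14, adjusted p = 0.127), Gata3 at 0.27 (SE 0.12, adjusted p = 0.141) and Cd8a at 0.07 (SE 0.15, adjusted p = 0.755). For genotype 0 of 10 passed (4.68% of all genes), with effects between -0.23 for Lck and 0.23 for Tcf7 and adjusted p of at least 0.271.

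Other genes of T cell signalling and fate, a list of 49 symbols of which 47 had a value, was set beside them. With decitabine 8 of 47 were higher and 1 lower by the same limma test, beside 12.5% and 4.47% of all genes. Among those with a bright probe on all 4 arrays, the highest were Cd247, the zeta chain of the receptor, at 0.51 (adjusted p = 0.0162), Notch3, a receptor active in immature T cells, at 0.49 (adjusted p = 0.0213), and Bcl11b, a factor that commits cells to the T lineage, at 0.43 (adjusted p = 0.0300). The lowest were Ptcra, the alpha chain of the pre-T cell receptor, at -0.23 (adjusted p = 0.197), Tox, a nuclear factor of T cell development, at -0.18 (adjusted p = 0.307) and Rag2, which cuts receptor gene segments, at -0.08 (adjusted p = 0.695). The 1 lower gene, named after its value was seen, was Il2ra, a chain of the IL-2 receptor, at -0.59 (adjusted p = 0.0132), and like Il2 it had no bright probe on any array. With each array centred on the probes bright on all 4 arrays, Cd247, Notch3 and Bcl11b stood at -0.086, -0.11 and -0.17. These 3 calls were lost under 7, 7 and 8 of 12 other settings, with limma's adjusted p between 0.00262 and 0.709 for Cd247, 0.000280 and 0.779 for Notch3 and 0.00480 and 0.977 for Bcl11b.

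The T lineage genes were set beside other lineages in the share of bright probes, as a description. On at least 1 array 13.3% of their kept probes were bright, against 18.8% of all kept probes. The share was 20.5% of 1012 probes of the other T cell genes, 27.1% of 210 probes of B lineage genes and 17.6% of 199 probes of myeloid genes. By limma 1 of 9 B lineage genes was higher with decitabine, beside 12.5% of all genes, and 1 of 10 myeloid genes lower, beside 4.47%.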

How the data were processed

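The authors deposited 1 scanner file an array, made with Feature Extraction from Agilent (version 10.5.1.1 per the file headers, 10.5 per the submitters' processing notes). Per the file headers, the deposited spot intensities are on a linear scale, with background subtracted and detrended, surrogate values in place of signals too near background, and dyes normalized. The deposited log ratios are on the log10 scale, Cy5 over Cy3 per the file headers, and served only as an alternative. The deposited series value table was not used here. Per the labels' protocols, both DNAs went through whole-genome amplification before they were labelled, which can change the proportions of fragments.

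From the processed signals, log2 of MeDIP over input was averaged over the spots of a probe and centred on each array's median over kept probes, with no loess or quantile step. Genes needed at least 3 kept probes. Coordinates are on mm9, which the file headers name, with annotation from GENCODE vM1. Calls between 2 arrays were at least 1.5-fold, or at least 2-fold with 80% of probes moving that way. Decitabine and genotype were tested with limma 3.58.1 in R 4.3.3 (lmFit, eBayes, adjusted p under 0.05). The fit had first been run on simulated data with additive effects and independent noise. That run cannot show how the test behaves with an interaction, slide effects, surrogate values or another centring. All 10 genes are named, singly named probes are those bright on all 4 arrays and each gene's bright probe with the largest mean decitabine difference, and of the other T cell genes the 3 highest and 3 lowest with a bright probe on all 4 arrays. Exceptions are marked where they occur. The genes, lists, rule and settings were chosen with earlier results of these data known. Precision is limited by the number of arrays. Alternatives were the background correction, normalization, centring, probe filters, the deposited log ratio, the median over probes, the MeDIP channel alone, probes within 1000 bp of a start, and limma with a trend.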

Additional observations from a re-analysis of the deposited data

Results flagged for a closer look

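The mean of Cd8a was lower with decitabine in KO cells and higher in WT cells. Over its 23 kept probes decitabine minus untreated was -0.25 in KO cells and 0.40 in WT cells on the log2 scale, a difference of -0.643. The difference was not tested, since each group has 1 array. Centred on the probes bright on all 4 arrays, both were below 0, at -0.999 in KO and -0.051 in WT cells, and with the median over probes they were -0.18 and 0.099. Most of it lay in the 6 neighbouring probes from the first intron to the third exon, chosen after their values were seen. Their means, which include surrogate values, were -0.38 in KO and 1.37 in WT cells, while the other 17 probes averaged -0.20 and 0.05.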

How the results depend on the processing

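No paired analysis was possible because each group has 1 array, and for the same reason no array could be left out of a fit and the slide could not be a block. Over the 6 neighbouring Cd8a probes from the first intron to the third exon, decitabine minus untreated stayed below 0 in KO cells (-1.36 to -0.25) and above 0 in WT cells (0.76 to 1.83), and KO minus WT under decitabine stayed below 0 (-2.68 to -1.01), under every setting that gave a value. In the main setting surrogate values entered the levels of these probes on all arrays except WT decitabine. The probes were chosen after their values were seen, and every setting uses the same arrays. The steady signs therefore do not show whether the difference would recur in other cultures. No T lineage gene passed the limma test for genotype under any setting. MeDIP signal over background limits all values, since 195 of 225 kept probes were not bright on any array, and the cause of the changes below was not tested.

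Centred on the probes bright on all 4 arrays, 7 T lineage genes passed the limma test for decitabine. The median of decitabine minus untreated was then -0.79 in KO and -0.30 in WT cells, median levels were -0.93 in KO decitabine and -0.62 in WT decitabine cells, and 8 genes were past 1.5-fold lower in KO cells, 2 in WT cells and 2 in KO minus WT under decitabine. All genes moved as well: 9766 of 17034 passed limma. Their medians for these 3 comparisons were -0.66, -0.35 and -0.26, the first itself past 1.5-fold lower. The share of all genes past 1.5-fold was not counted in that setting or in any other alternative. Counts past 1.5-fold here and below therefore cannot be read as particular to the T lineage genes. In that setting the decitabine effect was -0.29 for Cd4, -0.53 for Cd8a, -0.086 for Cd247, -0.11 for Notch3 and -0.17 for Bcl11b. Centred on all probes, a setting added after the data were seen, 3 genes passed, 1 was past 1.5-fold higher with decitabine in WT cells, and the median levels were -0.56, -0.63, -0.54 and -0.76 (KO decitabine, KO untreated, WT decitabine, WT untreated). Cd4 was among those passing (adjusted p = 0.0251), as it was with no filter on input (adjusted p = 0.0318), where 3 genes passed. Of all genes 5935 passed when centred on all probes and 3791 with no filter on input.

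With loess 0 passed, KO minus WT without treatment had a median of -0.12, 1 gene was past 1.5-fold lower with decitabine in WT cells, median levels were 0.22 in WT decitabine and 0.24 in WT untreated cells, and Cd8a stood at -0.059. With quantile normalization 0 passed and Cd8a stood at -0.035, with the median over probes 0 passed and Cd8a stood at -0.039, and with normexp 0 passed and 0 were past 1.5-fold lower in KO cells. With MeDIP alone the median levels were 0.20, 0.32, 0.34 and 0.32 in the order above, 1 gene was lower in KO than in WT cells under decitabine, and Cd8a stood at -0.022. Within 1000 bp of a start 0 passed, 1 gene was lower in KO than in WT cells under decitabine, 1 was higher with decitabine in KO cells, the WT decitabine median level was 0.24 and Cd8a stood at -0.15. For these counts past 1.5-fold no share of all genes was counted. At 2-fold with 80% of probes agreeing in direction, 0 genes were lower in KO cells.

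Over probes bright on at least 1 array, 4 genes had enough probes and 0 passed. Their medians were -0.42 for decitabine minus untreated in KO and 0.66 in WT cells, -0.48 for KO minus WT under decitabine and -1.10 for the KO minus WT difference of the responses, with levels of -0.32 in KO decitabine and 0.16 in WT decitabine cells. Past 1.5-fold, 2 were higher with decitabine in WT cells and 2 were lower in KO than in WT cells under decitabine. A further count past that limit was 1 higher in KO than in WT cells without treatment. The share of all genes was not counted, and Cd4 stood at -0.21. Over all genes, limma for decitabine called 2893, of which 2132 were higher, against 9766 and 41 centred on bright probes, 5935 and 5577 centred on all probes, 3643 and 3208 with the deposited log ratio, 2978 and 918 with MeDIP alone, 919 and 609 with medians, 689 and 291 with quantile, 444 and 310 with normexp, 26 and 12 over bright probes and 0 with loess. For genotype the 797 calls became between 0 with loess and 3189 with no filter on input.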
